A study of Mus musculus with 48 samples.

Results

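The genes described are the collagens and laminins, the fibrous and sheet-forming proteins of the extracellular matrix. They were taken by name alone, as every row of the count table named Col, a number, a and a number, or beginning with Lama, Lamb or Lamc and a number. This gave 54 genes (43 collagens and 11 laminins) of 16510 in the table. Single-cell RNA sequencing had been run on the mouse hypothalamus at E18.5, a late embryonic stage, and the genes are followed through the leptomeningeal, vascular and neural cells of that tissue and then between genotypes.

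There were 6 control embryos (*Eed* fl/fl) and 9 *Eed-cKO* embryos (*Eed* fl/fl; *Sox1-Cre*/+), on a mixed B6:129S1 background, in 22 and 26 libraries. *Eed* encodes a core subunit of polycomb repressive complex 2, the enzyme that places the repressive mark H3K27me3. The floxed allele was present in both groups, so the control differs by the absence of *Cre*. *Sox1-Cre* is active in the neuroectoderm, which forms neurons, astrocytes, ependymal cells and tanycytes but not the endothelium. Both sexes were present in each group, in unequal proportion. The embryo was the replicate, since all libraries of an embryo come from 1 animal. The control embryos came from 4 litters and the mutants from 6, and 0 litters held both, so litter and genotype cannot be told apart.

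A collagen molecule is a triple helix of alpha chains. The fibril-forming collagens I, III and V give tensile strength to connective tissue and are made by fibroblasts, in the brain by those of the leptomeninges (the pia and arachnoid). Collagen IV and the laminins, which are trimers of an alpha, a beta and a gamma chain, build the basement membrane sheets that lie under endothelium, around pericytes and beneath the pia. Other collagens decorate fibrils (IX, XII, XIV), form beaded filaments (VI) or span the plasma membrane (XIII, XXIII, XXV).

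The table held 14121 cells. Embryo totals ran from 658175 to 7487417 unique molecular identifiers (UMIs, each marking 1 captured RNA molecule) over 217 to 1664 cells, and the lowest total was in an *Eed-cKO* embryo. A barcode occurred in more than 1 library 101 times, which touched 203 cells. *Eed* itself was lower but present in neuron-like cells of the mutants, at 15.96 to 28.6 CPM (UMIs of the gene per 1000000 UMIs of the class) against 29.2 to 32.9 in controls. The counted 3′ end of *Eed* may lie outside the deleted exons, so this is no check of the deletion. Cells were clustered without any collagen or laminin gene, and clusters were named from stated markers. The leptomeningeal-like class had 17 of 19 markers raised in its main cluster (*Dcn*, *Lum*, *Slc6a13*, *Foxc1* among them), the endothelial-like class 14 of 15, and the pericyte-like class, which could also hold smooth muscle, 15 of 15. All levels below are CPM of the UMIs summed over the cells of a class in an embryo. Class means pool control and *Eed-cKO* embryos unless a genotype is named. A UMI marks the end of an mRNA, so no scaling by length applies.

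The leptomeningeal-like cells carried the most collagen and laminin RNA, and the classes differed in which genes supplied it. The 54 genes together made up 25219 ± 4943 CPM (SD, n = 12 embryos) in 354 leptomeningeal-like cells, 13137 ± 3732 (n = 11) in 101 pericyte-like cells and 6471 ± 1361 (n = 13) in 265 endothelial-like cells. The neuroectodermal classes were lower, with 3206 ± 781 in tanycyte-like cells (n = 15), 3160 ± 773 in ependymal-like cells (n = 11), 1704 ± 476 in astrocyte-like cells (n = 15) and 468 ± 95.0 in 7502 neuron-like cells (n = 15). The 96 microglia-like cells held 708 ± 1496 (n = 10), with 4936 in the highest embryo, and *Col1a2* (179 ± 521) and *Col3a1* (87.4 ± 276) led there. Of the 54 genes, 22 had their highest mean in leptomeningeal-like cells, 11 in ependymal-like, 10 in pericyte-like, 6 in tanycyte-like, 2 in cycling progenitor-like, 2 in endothelial-like and 1, *Col9a3*, in astrocyte-like cells. This tally had no floor on counts. *Col6a6* (9 UMIs over all classes), *Col17a1* (17) and *Col20a1* (32) were placed in ependymal-like cells, and *Col28a1* (20) in pericyte-like cells. The ependymal-like means rest on 2 control and 9 *Eed-cKO* embryos. The pericyte-like cells were the shallowest of the vascular and leptomeningeal classes, with a median of 1626 UMIs per cell against 4309 and 4807 in leptomeningeal-like and endothelial-like cells.

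**Figure D1:**
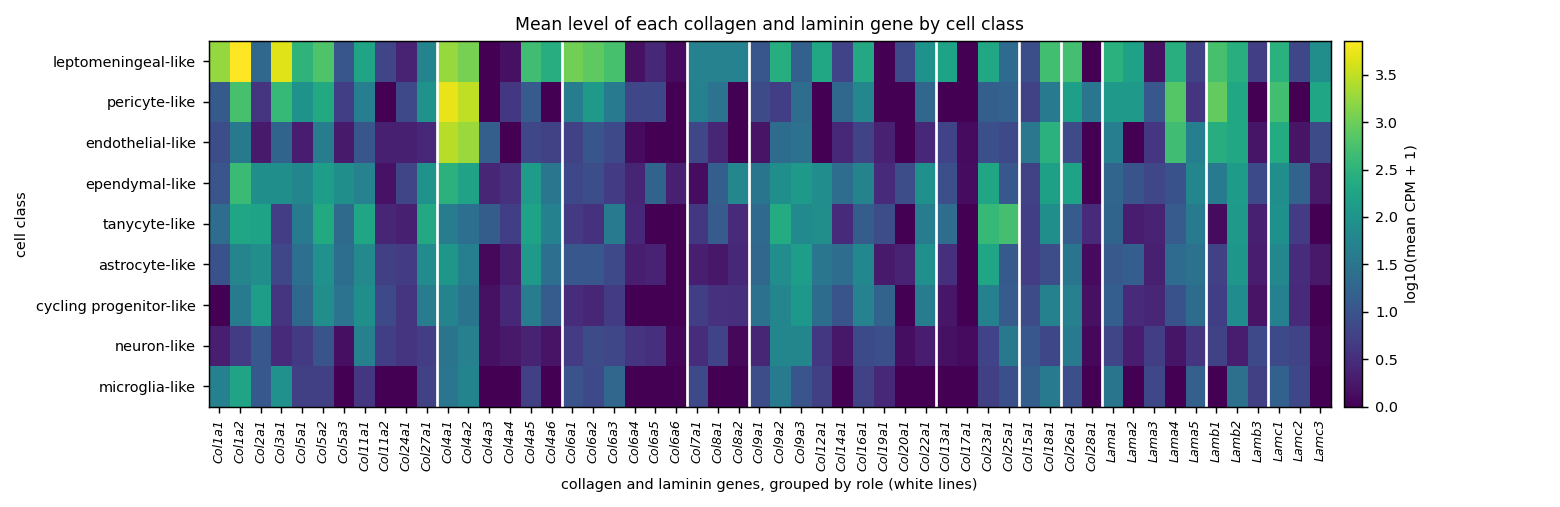
Heat map of the mean level of each collagen and laminin gene (columns, grouped by role) in each cell class (rows), coloured by log10(mean CPM over embryos + 1). The fibril-forming genes *Col1a2* (7207 CPM) and *Col3a1* (4657 CPM) stand out in leptomeningeal-like cells, whereas *Col4a1* and *Col4a2* are bright in all 3 of the leptomeningeal-like, pericyte-like and endothelial-like rows.

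Fibril-forming collagens led in the leptomeningeal-like class. *Col1a2* stood at 7207 ± 1585 CPM (range 4694 to 10020, n = 12) and *Col3a1* at 4657 ± 1061 (2964 to 6389), with *Col1a1*, the partner of *Col1a2* in collagen I, at 1756 ± 467 (1041 to 2466). In pericyte-like cells *Col1a2* was at 548 ± 272 and *Col3a1* at 385 ± 297 (n = 11), whereas *Col1a1* had 2 UMIs in all 101 cells. Endothelial-like cells held 34.7 ± 98.6 CPM of *Col1a2* and 16.2 ± 47.2 of *Col3a1* (n = 13), and 1 embryo reached 361 and 172 CPM. The leptomeningeal-like and endothelial-like ranges of these 3 genes did not overlap. The beaded filament genes *Col6a1* (1098 ± 211 CPM) and *Col6a2* (793 ± 291) followed the same order, with 40.1 ± 90.1 and 119 ± 84.5 in pericyte-like and 4.82 ± 17.4 and 9.85 ± 18.9 in endothelial-like cells.

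The 2 ubiquitous chains of collagen IV were highest in pericyte-like cells. *Col4a1* was at 5282 ± 1881 CPM in pericyte-like cells (2229 to 8037), 2754 ± 740 in endothelial-like cells (1689 to 4160) and 1824 ± 672 in leptomeningeal-like cells (917 to 3232). *Col4a2*, whose chain joins 2 of *Col4a1* in the common collagen IV trimer, was at 3088 ± 1092, 1879 ± 406 and 1160 ± 361. Embryos of neighbouring classes overlapped in both genes, and the paired tests below address the order. The 2 genes lie head to head on chromosome 8 (GRCm38, GENCODE vM21), *Col4a1* at chr8:11198423-11312826 on the minus strand and *Col4a2* at chr8:11312805-11449287 on the plus strand. Their annotated start sites are 21 bases apart and their first exons overlap on opposite strands. The shared promoter is shown because both genes were ordered alike between classes and both rose in neuron-like cells of the mutants, though in astrocyte-like cells *Col4a1* alone passed the test. The RefSeq window of *Col4a2* (GRCm38.p6, chr8:11312555-11312854, plus strand, 250 bases before to 50 after its start) reads as follows, with GC boxes (GGGCGG or CCGCCC) and the CCAAT box (CCAAT or ATTGG) in capitals.
Col4a2: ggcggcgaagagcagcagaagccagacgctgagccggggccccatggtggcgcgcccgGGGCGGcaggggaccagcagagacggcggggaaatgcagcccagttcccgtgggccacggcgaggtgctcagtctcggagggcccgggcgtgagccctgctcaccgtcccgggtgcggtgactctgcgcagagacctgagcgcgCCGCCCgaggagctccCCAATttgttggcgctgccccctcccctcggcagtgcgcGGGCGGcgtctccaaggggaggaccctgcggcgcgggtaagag
It holds 3 GC boxes, 1 CCAAT box, no TATAAA or TTTATA and 33 CpG dinucleotides. Of all 32851 windows of this length, 35.7% hold a GC box, 37.4% a CCAAT box and 13.6% a TATA box by the same letters, and 8.56% have at least as many CpGs. Windows were found for 39 of the 54 genes.

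Laminin chains separated the same classes. *Lama4*, the alpha chain of vascular laminin, was at 687 ± 288 CPM in pericyte-like, 468 ± 157 in endothelial-like and 273 ± 83.4 in leptomeningeal-like cells. *Lama5*, the other endothelial alpha chain, was at 45.6 ± 30.04 in endothelial-like cells, with 6 UMIs in all leptomeningeal-like cells. In pericyte-like cells it had 1 UMI in all control and 6 in all *Eed-cKO* cells. *Lama2* was at 159 ± 32.5 in leptomeningeal-like and 118 ± 95.1 in pericyte-like cells, with 0 UMIs in 265 endothelial-like cells. Taking 3 UMIs over that class as the floor, *Lama2* was at least 82.9-fold higher in leptomeningeal-like and at least 61.3-fold higher in pericyte-like cells (counting error only). Of the widely used beta and gamma chains, *Lamb1* was at 857 ± 443, 250 ± 90.8 and 538 ± 137 CPM in pericyte-like, endothelial-like and leptomeningeal-like cells, *Lamc1* at 494 ± 234, 239 ± 75.3 and 288 ± 94.1, and *Lamb2* at 203 ± 173, 204 ± 54.7 and 264 ± 112.

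The class differences were tested within embryos, by the quasi-likelihood test of edgeR, which took the embryo as a block and adjusted p over all genes. Against endothelial-like cells (11 embryos with both classes), 31 of 40 collagen and laminin genes tested were higher in leptomeningeal-like cells and 6 were lower, where 17.4% of all 11558 genes were higher and 14.3% lower. Their median difference was 4.09 on the log2 scale against 0.08 for all genes. The 6 that were lower were *Col4a1* (−0.55 ± 0.14 SE, adjusted p = 1.32e-03), *Col4a2* (−0.65), *Col4a3* (0 UMIs against 17), *Col15a1* (−1.92), *Lama4* (−0.62) and *Lama5* (−3.20), all of basement membranes. *Lamb1* (1.14 ± 0.18) and *Lamb2* (0.56 ± 0.19, adjusted p = 0.0169) were higher, and *Lamc1* (0.41 ± 0.17, adjusted p = 0.0623) did not pass the test.

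Against pericyte-like cells (9 embryos), 21 of 37 genes tested were higher in leptomeningeal-like cells and 3 lower, where 5.70% and 4.79% of all 10405 genes were. *Col4a1* (−1.56 ± 0.17, adjusted p = 9.61e-18), *Col4a2* (−1.37 ± 0.19) and *Lama4* (−1.09 ± 0.28, adjusted p = 1.55e-03) were the lower ones, and every pericyte-like sum of *Col4a1* exceeded every leptomeningeal-like sum of these embryos. *Col1a1* (7.06 ± 0.45) and *Col3a1* (3.61 ± 0.22) were higher. Endothelial-like cells, set against pericyte-like cells in 11 embryos, had 2 of 26 genes tested higher (*Col18a1*, 2.94 ± 0.48, and *Lama5*, 2.86 ± 1.01) and 16 lower, where 8.53% and 7.96% of all 10215 genes were. *Col18a1* encodes the basement membrane collagen that endostatin is cut from. *Col4a1* (−0.96 ± 0.14, adjusted p = 2.56e-10), *Col4a2* (−0.72 ± 0.15), *Lamb1* (−1.66 ± 0.23) and *Lamc1* (−1.06 ± 0.26) were lower in endothelial-like cells, and *Lama4* did not pass the test (−0.51 ± 0.22, adjusted p = 0.112). The calls of *Col4a1* and *Col4a2* between endothelial-like and pericyte-like cells were lost on sums of at least 10 cells (−0.75, adjusted p = 0.1, and −0.62, adjusted p = 0.252) and with TMM scaling factors taken from all genes tested (−0.31, adjusted p = 0.118, and −0.07, adjusted p = 0.786). With those factors *Lamc1* (−0.42, adjusted p = 0.265) and, between leptomeningeal-like and pericyte-like cells, *Lama4* (−0.38, adjusted p = 0.358) did not pass either, and on sums of at least 10 cells *Lama5* did not (between endothelial-like and pericyte-like cells, 1.74). The median over all genes stayed within 0.1 of 0 in each contrast with the main factors and with library size alone. It was not computed with TMM factors from all genes tested.

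The leading genes of neural cells were in part also those of other classes. The highest in neuron-like cells were *Col9a3* (58.9 ± 29.4 CPM) and *Col9a2* (58.4 ± 16.5), which encode chains of the fibril-associated collagen IX, followed by *Col11a1* (47.0 ± 6.47), *Col4a2* (46.3 ± 13.9) and *Col26a1* (39.5 ± 9.55; all n = 15). Of these, *Col9a2* (250 ± 114 CPM, n = 12) and *Col26a1* had their highest mean in leptomeningeal-like, *Col4a2* in pericyte-like and *Col11a1* in tanycyte-like cells. In astrocyte-like cells the highest were *Col23a1*, a transmembrane collagen (193 ± 123), *Col9a3* (141 ± 85.8), *Col4a5* (120 ± 36), *Col4a1* (109 ± 55.4) and the laminin chain *Lamb2* (108 ± 50.4). These means pool the genotypes, and in controls alone the order differed. In control neuron-like cells *Col9a3* ran from 19.7 to 37.3 CPM and *Col11a1* from 33.7 to 53.9. In control astrocyte-like cells *Col23a1* ran from 26.2 to 118 CPM and *Lamb2* from 61.2 to 225. Tanycyte-like cells, which line the floor of the ventricle, were highest in the transmembrane collagen *Col25a1*, at 518 ± 197 CPM against 34.9 ± 8.32 in neuron-like and 11.2 ± 12.2 in astrocyte-like cells. The laminin chains were low in neuron-like cells, with *Lamc1* at 6.03 ± 1.63, *Lamb1* at 4.77 ± 1.57, *Lama5* at 2.84 ± 1.91, *Lama2* at 1.07 ± 0.72, *Lamb2* at 1.04 ± 0.66 and *Lama4* at 0.63 ± 0.41.

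To compare the genotypes in neurons, the neuron-like cells were limited to those with fewer than 2 of *Col1a1*, *Col1a2* and *Col3a1* detected, which took out 0 control and 5 *Eed-cKO* cells. This left 3959 control and 3543 *Eed-cKO* cells. Those 3 genes chose the cells and were not tested there. Of the other 51 genes, 32 passed the filter on low counts. In *Eed-cKO* neuron-like cells 8 of the 32 rose and 0 fell, where 7.76% of all 12053 genes tested rose and 6.94% fell. The 8 were *Col9a2* and *Col9a3* of collagen IX, *Col4a1* and *Col4a2*, *Col6a1* and *Col6a2*, *Col26a1* and *Lama5*. At an unadjusted p under 0.05, 11 genes were higher and 3 lower, and DESeq2 called 9 higher and 0 lower. The median log2 fold change was 0.38 over the 32 genes and 0.01 over all genes, and it was also above that of all genes in astrocyte-like cells (0.50 against −0.04) and leptomeningeal-like cells (0.38 against −0.04), but not in endothelial-like cells (0.03 against 0.02). The 24 not called ran from −0.68 (*Lamb3*) to 0.66 (*Col19a1*). In 3 of the 32 genes every mutant lay above every control, and in 0 every mutant lay below. Of all genes tested, 2.15% lay above in this way and 1.04% below.

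Collagen IX showed the largest rise in CPM. *Col9a3* (chr2:180597790-180622189, plus strand) ran from 19.7 to 37.3 CPM in the 6 controls (median 25.8) and from 60.4 to 105 in the 9 mutants (median 76.0). The groups did not overlap, and the log2 fold change was 1.58 ± 0.13 (adjusted p = 4.66e-10). *Col9a2* ran from 33.8 to 56.7 (median 42.6) in controls and from 52.6 to 88.7 (median 66.8) in mutants. These ranges touched at *Eed-cKO* embryo 2 and control embryo 5, with a log2 fold change of 0.67 ± 0.12 (adjusted p = 1.77e-04). *Col9a3* shares exonic sequence with *Tcfl5* on the opposite strand, and the strand of counting is not given in the sources used here, so reads of the 2 cannot be told apart. *Tcfl5* was at 4.39 ± 0.80 CPM in control and 10.3 ± 3.03 in *Eed-cKO* neuron-like cells.

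The head-to-head pair of collagen IV rose together. *Col4a2* ran from 24.0 to 36.0 CPM in controls (median 33.4) and from 43.8 to 64.7 in mutants (median 55.5), without overlap, for a log2 fold change of 0.77 ± 0.11 (adjusted p = 1.21e-05). *Col4a1* ran from 15.6 to 31.6 (median 19.8) and from 20.05 to 45.0 (median 33.3), with *Eed-cKO* embryos 2 and 3 inside the control range, for 0.74 ± 0.15 (adjusted p = 8.29e-04). The 2 beaded filament genes, neighbours on chromosome 10 (*Col6a1* at chr10:76708792-76726168 and *Col6a2* at chr10:76595762-76623630, both on the minus strand), were low in level. *Col6a2* had 86 UMIs in controls and 175 in mutants, at 2.45 to 5.72 and 5.01 to 14.8 CPM (1.36 ± 0.22, adjusted p = 9.28e-05). *Col6a1* had 46 and 94 UMIs, at 0.61 to 2.67 and 2.66 to 7.52 CPM (1.37 ± 0.29, adjusted p = 1.74e-03). In both genes 1 mutant fell within the control range.

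*Col26a1*, a collagen of little known function, ran from 25.2 to 32.7 CPM in controls (median 30.9) and from 37.6 to 59.8 in mutants (median 43.5), without overlap (0.59 ± 0.10, adjusted p = 1.47e-04). *Lama5* had 30 UMIs in controls and 65 in mutants. It ran from 0.45 to 1.91 CPM and from 1.16 to 7.52 CPM, with *Eed-cKO* embryo 4 inside the control range (1.45 ± 0.34, adjusted p = 4.32e-03). The share of neuron-like cells with a UMI went the same way. It was 12.5% in control and 27.2% in *Eed-cKO* cells for *Col9a3*, and 13.9% and 21.5% for *Col4a2*. In the 96 microglia-like cells, which should lack these genes but had the high collagen sum of 1 embryo given with the class totals, it was 3.13% and 7.29%, at a median of 2794.5 UMIs per cell against 5053 in neuron-like cells. For *Col6a1* (0.985% and 1.98%, microglia-like 1.04%), *Col6a2* (2.00% and 4.01%, microglia-like 2.08%) and *Lama5* (0.632% and 1.64%, microglia-like 1.04%) the control share was no higher than in microglia-like cells of both genotypes. Control microglia-like cells held 0, 1 and 0 UMIs of these genes, and *Eed-cKO* ones 2, 1 and 4. With so few UMIs, whether the control share is background was not tested.

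**Figure D2:**
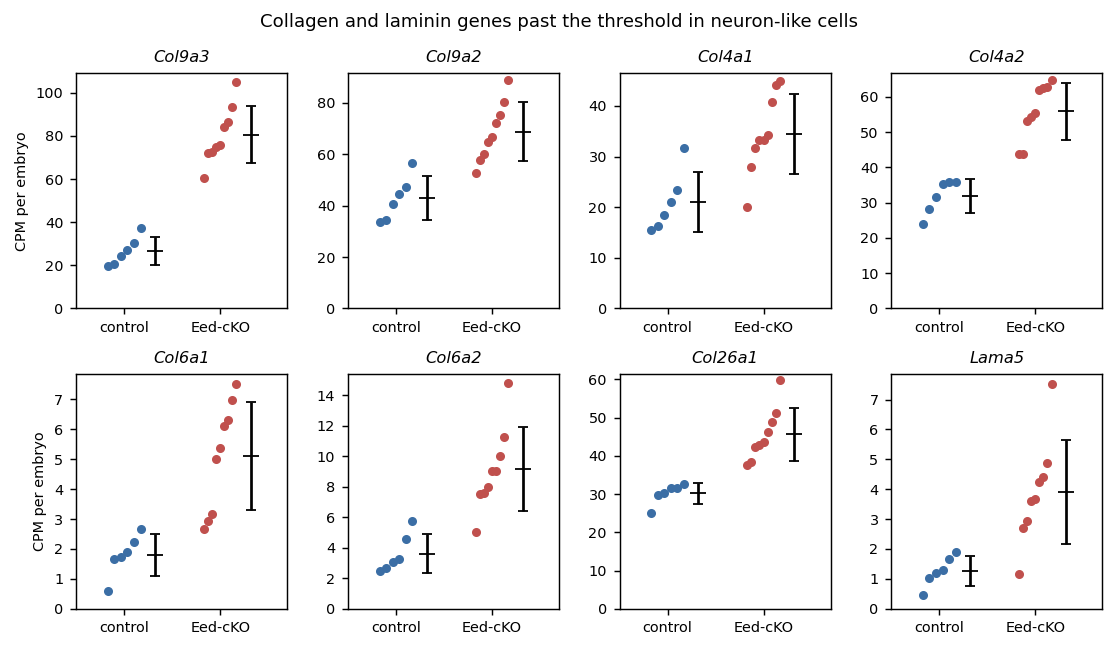
CPM per embryo (y axes from 0) of the 8 genes past the threshold in neuron-like cells, 6 control (blue) and 9 Eed-cKO (red) embryos; points are embryos in order of value, and black bars are the mean ± SD. Col9a3, Col4a2 and Col26a1 show no overlap between the genotypes, whereas the lowest mutants of the other 5 genes lie inside the control range.

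The types of neuron differed between the genotypes, and this touched the result. Cluster 0, led by *Tfap2b* and *Hoxc10*, held 1530 *Eed-cKO* and 20 control cells and had the highest *Col9a3* (111 CPM), *Col9a2* (82.4), *Col4a2* (64.6), *Col26a1* (62.9) and *Col4a1* (45.9) of the 11 neuron-like clusters. Most cells of cluster 4 (*Sp8*, *Pax6*; 870 of 992), cluster 6 (*Dlx1*, *Six6*; 770 of 901) and cluster 13 (*Gbx2*, *Tcf7l2*; 328 of 346) were from controls. In the 9 clusters with at least 100 cells of each genotype (3611 control and 1995 *Eed-cKO* cells, a choice made after seeing the data), the log2 fold change of *Col9a3* was 0.95 (adjusted p = 1.91e-05), of *Col4a2* 0.69, of *Col6a1* 1.60, of *Col6a2* 1.11, of *Col4a1* 0.54 (adjusted p = 0.0301) and of *Col9a2* 0.45 (adjusted p = 0.0281). *Col26a1* (0.22, adjusted p = 0.305) and *Lama5* (1.17, adjusted p = 0.0708) no longer passed, and *Col2a1* and *Col18a1* rose and *Col8a1* fell (−1.37, adjusted p = 0.0165). Neurons split by transmitter kept fewer calls. In *Slc17a6* cells without *Slc32a1*, *Col9a3* (1.29), *Col9a2* (0.49) and *Col4a2* (0.51) passed, whereas *Col4a1*, *Col6a1*, *Col6a2*, *Col26a1* and *Lama5* did not (adjusted p from 0.0738 to 0.28). In *Slc32a1* cells without *Slc17a6*, *Col9a3* (1.53), *Col4a1* (1.21) and *Col4a2* (1.07) passed, whereas *Col9a2*, *Col6a1*, *Col6a2* and *Col26a1* did not (adjusted p from 0.0553 to 0.527) and *Lama5* did not reach the filter on low counts. Within the 9 clusters *Col9a3* and *Lama5* were higher in mutants in 9 of 9, *Col9a2* and *Col6a2* in 8, *Col4a1*, *Col4a2* and *Col6a1* in 7 and *Col26a1* in 6.

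The share of leptomeningeal-like cells and the sum of leptomeningeal markers differed between the genotypes as well. Leptomeningeal-like cells made up 0 to 3.41% of the cells of control embryos (median 1.01%) and 1.84 to 6.12% of *Eed-cKO* embryos (median 3.36%; exact permutation test over embryos, two-sided, p = 0.00759). In neuron-like cells, the 19 leptomeningeal markers summed to 27.3 to 57.9 CPM in controls and 50.1 to 76.9 in mutants, with 1 (*Dpt*) at 0. Pooled over cells, *Igf2* (2.36 and 13.1 CPM), *Pdgfra* (0.855 and 5.39) and *Aldh1a2* (0.366 and 4.34) were higher in mutants. *Nov* (12.4 and 6.45) and *Slc6a13* (1.06 and 0.899) were lower, and *Crabp2* (10.7 and 12.3) and *Ptgds* (10.5 and 12.2) differed little. *Col1a2* ran from 1.09 to 4.45 CPM in controls (median 1.78) and from 0 to 9.66 in mutants (median 4.75). Over all neuron-like cells, before the limit on the 3 genes, *Col3a1* had 15 UMIs in controls and 67 in mutants and *Col1a1* 12 and 27. Per UMI of *Col1a2* in these cells, *Col1a1* gave 0.214 and 0.248 UMIs in control and *Eed-cKO* neuron-like cells, against 0.246 and 0.246 in leptomeningeal-like cells. The 8 genes that rose had a higher ratio than in leptomeningeal-like cells, which compares their levels and not their rises. For *Col9a3* it was 11.5 and 13.8 in neuron-like cells and 0.0021 and 0.0018 in leptomeningeal-like cells, and for *Col4a2* 13.7 and 9.36 against 0.147 and 0.166. The smallest gap was that of *Col6a1*, 0.821 and 0.862 against 0.205 and 0.134. In neuron-like cells the ratios of *Col6a1*, *Col6a2* (1.54 and 1.61) and *Lama5* (0.536 and 0.596) differed little between the genotypes. These genes thus rose about in step with *Col1a2*, which had 56 UMIs in controls and 109 in mutants. The source of their rise was not tested. *Col4a1* gave 11.3 and 8.69 in pericyte-like and 267 and 69.4 in endothelial-like cells, against 9.02 and 6.19 in neuron-like cells. *Col4a2* gave 6.71 and 5.19 in pericyte-like and 184 and 47.3 in endothelial-like cells. *Lama5* gave 4.38 and 1.04 in endothelial-like cells, against 0.536 and 0.596 in neuron-like cells. *Col6a1*, *Col6a2*, *Col9a2*, *Col9a3* and *Col26a1* were lower in both vascular classes than in neuron-like cells. With only the 7331 neuron-like cells that had fewer than 2 of the 19 markers (chosen after seeing the data), all 8 genes passed, with *Col9a3* at 1.57 and *Col6a1* at 1.40.

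**Figure D3:**
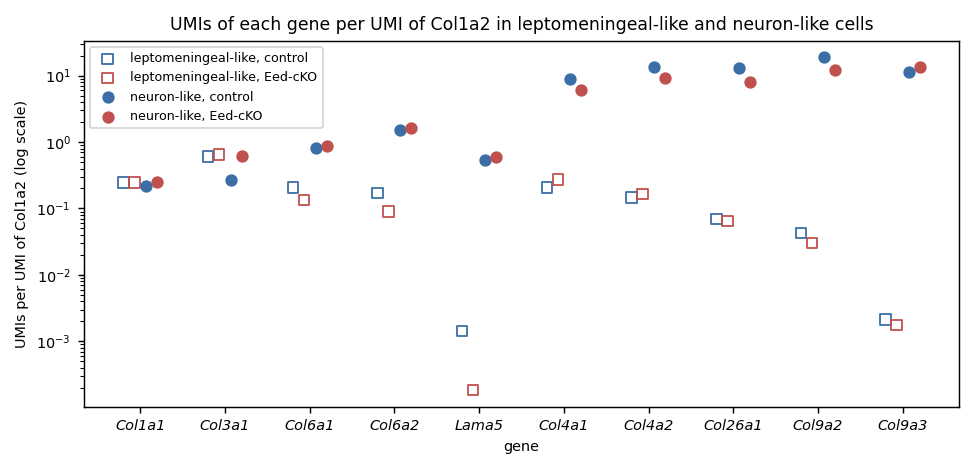
UMIs of each gene per UMI of Col1a2 (log axis), in leptomeningeal-like (open squares) and neuron-like (filled circles) cells of controls (blue) and Eed-cKO (red) embryos, from counts summed over all cells of each class before the limit on the 3 genes. Col1a1 lies at about the same height in both classes, whereas Col4a1, Col4a2, Col9a2, Col9a3 and Col26a1 lie above 6 in neuron-like cells and below 0.3 in leptomeningeal-like cells.

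Markers of astrocytes differed too. The 14 astrocyte markers, none at 0, summed to 237 to 289 CPM in control and 311 to 372 in *Eed-cKO* neuron-like cells, without overlap, against 17297 to 32902 in astrocyte-like cells. The 6 pituitary markers summed to 42.1 to 74.1 and 103 to 158, none at 0. The 6 blood markers (378 to 453 and 235 to 372) and the 11 markers of oligodendrocyte precursors (206 to 252 and 150 to 205.6) were lower in mutants, also without overlap. The part of these lists in the results on neuron-like cells was not tested.

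The wider matrix programme was given by 4 lists that held no collagen or laminin. Of 20 genes of collagen folding and crosslinking that passed the filter in neuron-like cells, 3 rose and 0 fell, beside 7.76% and 6.94% of all genes, and the counts of the other lists are to be read against the same shares. These were *Loxl1*, a crosslinking oxidase (1.06 ± 0.24, adjusted p = 2.55e-03), *Serpinh1*, the collagen chaperone HSP47 (0.82 ± 0.19, adjusted p = 3.12e-03), and *Bmp1*, the procollagen C-proteinase (0.52 ± 0.12, adjusted p = 4.59e-03). Of 12 matrix receptors, *Itga7*, an integrin that binds laminin (1.43 ± 0.35), and *Bcam*, a receptor of *Lama5* laminins (0.75 ± 0.25, adjusted p = 0.044), rose and the syndecan *Sdc2* fell (−0.44 ± 0.11). Of 10 basement membrane partners, *Frem1* (0.91 ± 0.27) and *Ntn1* (0.72 ± 0.22) rose and *Npnt* (−0.39 ± 0.11) fell, and of 10 proteases and inhibitors *Mmp11* (0.72 ± 0.24, adjusted p = 0.0447) rose. The median log2 fold change of each list lay between −0.01 and 0.23. In astrocyte-like cells the same lists had 2 rises and 2 falls of 15 receptors, 0 and 2 of 23 folding and crosslinking genes, 3 and 4 of 14 partners and 3 and 1 of 11 proteases and inhibitors, beside 4.47% and 3.09% of all genes. There *Serpinh1* (−0.67 ± 0.17) and *Itga7* (−1.10 ± 0.31) were among the falls.

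Astrocyte-like cells showed changes in both directions. Of 36 genes tested in 6 control and 9 *Eed-cKO* embryos (337 and 355 cells), 6 rose and 3 fell, where 4.47% of all 11743 genes rose and 3.09% fell. At an unadjusted p under 0.05, 11 were higher and 4 lower. *Col9a3* ran from 26.5 to 61.8 CPM in controls (median 49.6) and from 167 to 296 in mutants (median 208), for a log2 fold change of 2.04 ± 0.21 (adjusted p = 8.82e-10). *Col23a1* ran from 26.2 to 118 (median 76.4) and from 120 to 465 (median 274), for 1.83 ± 0.24 (adjusted p = 2.31e-07). *Col4a1* ran from 16.5 to 101 (median 45.6) and from 111 to 188 (median 148), for 1.48 ± 0.24 (adjusted p = 1.46e-05). The groups did not overlap in these 3 genes, though the share of all genes without overlap was not computed in this class. Of the 36 genes, 4 lay wholly above the controls and 1, *Col24a1*, wholly below. *Col24a1* ran from 5.51 to 13.2 CPM in controls and from 0 to 4.62 in mutants, with at most 4 UMIs in an embryo. It did not pass, except without *Eed-cKO* embryo 4. *Col4a2*, the neighbour of *Col4a1*, had a fitted change of 0.43 ± 0.32 and did not pass (adjusted p = 0.535).

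*Col14a1*, which encodes a fibril-associated collagen, was close to off in controls. It had 1 UMI in 337 control cells, with 5 of 6 embryos at 0, and 54 UMIs in 355 *Eed-cKO* cells, with 11.0 to 84.6 CPM in all 9 embryos (adjusted p = 2.52e-06). *Col1a2* ran from 4.41 to 42.3 CPM in controls (median 11.2) and from 21.9 to 172 in mutants (median 104), for 2.41 ± 0.40 (adjusted p = 2.56e-05). *Lama4* ran from 0 to 11.0 and from 11.0 to 86.1 CPM, for 2.40 ± 0.55 (adjusted p = 2.22e-03). *Col2a1*, which encodes the collagen of cartilage fibrils, fell from 55.4 to 155 CPM in controls (median 125) to 26.7 to 78.5 in mutants (median 59.2), a log2 fold change of −0.98 ± 0.24 (adjusted p = 5.36e-03). *Col5a2* (−0.95 ± 0.26, adjusted p = 0.0137) and *Col22a1* (−1.004 ± 0.30, adjusted p = 0.0274) also fell, although *Eed-cKO* embryo 2 was above all controls in both, at 211 and 254 CPM. Both calls were weak: *Col5a2* was lost without control embryo 1 (−0.83) or control embryo 4 (−0.86), and *Col22a1* without any of control embryos 1, 3 and 6 and *Eed-cKO* embryos 3, 4, 5 and 6 (−0.89 to −0.99) and with DESeq2.

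**Figure D4:**
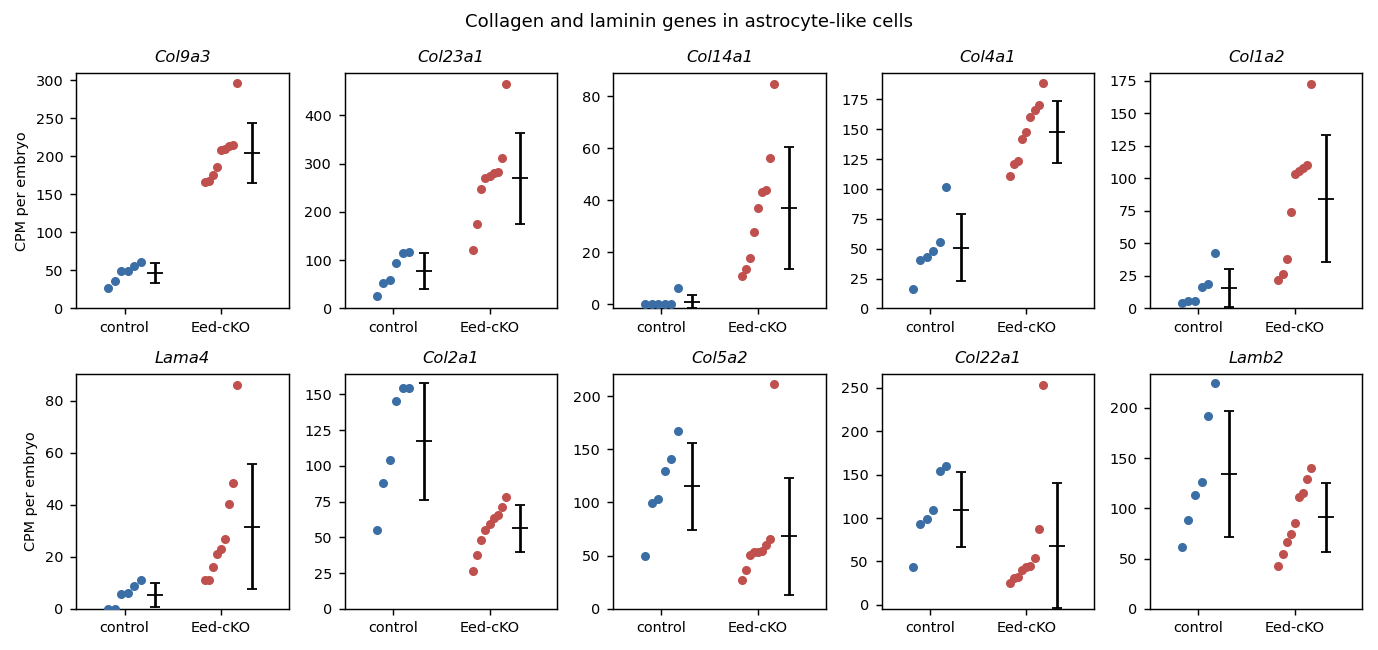
CPM per embryo of the 9 genes past the threshold in astrocyte-like cells and of Lamb2, which was not, in 6 control (blue) and 9 Eed-cKO (red) embryos; black bars are the mean ± SD. Col9a3, Col23a1, Col14a1 and Col4a1 do not overlap between the genotypes, and 1 mutant lies far above the others in Col5a2 (211 CPM) and Col22a1 (254 CPM).

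The sum of leptomeningeal markers differed strongly in astrocyte-like cells. The 19 markers summed to 43.3 to 88.1 CPM in controls and 317 to 1085 in mutants, without overlap, with 2 of the 19 (*Osr1* and *Dpt*) at 0. The 6 pituitary markers, 2 of them at 0, summed to 2.82 to 61.8 and 82.9 to 134. The markers did not move alike. *Igf2* went from 14 to 296 UMIs, *Foxc1* from 3 to 78 and *Dcn* from 2 to 73, whereas *Ogn* fell from 21 to 7 and *Crabp2* from 8 to 2. *Slc6a13* (0 and 3 UMIs), *Apod* (1 and 3) and *Slc22a6* (0 and 1) stayed near 0 in both genotypes. Without the cells that had 2 or more of these markers, which left 332 control and 258 *Eed-cKO* cells, 6 of the 9 calls held. These were *Col9a3* (2.02, adjusted p = 1.32e-08), *Col23a1* (1.52), *Col4a1* (1.35), *Col14a1*, *Col1a2* (2.09, adjusted p = 7.58e-04) and *Col2a1* (−0.97, adjusted p = 0.0263). *Lama4* (1.89, adjusted p = 0.116), *Col5a2* (−0.87, adjusted p = 0.0847) and *Col22a1* (−0.98, adjusted p = 0.105) did not pass, and this choice of cells was made after seeing the data. *Col1a1* and *Col3a1*, which accompany *Col1a2* in leptomeningeal-like cells, had 13 UMIs and 11 UMIs beside 140 of *Col1a2* in *Eed-cKO* astrocyte-like cells.

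Whether the genotype acted differently in the 2 neural classes was tested with an interaction term and the embryo as a block. Of 37 genes, 1 had a larger change in astrocyte-like cells and 1 a smaller, where 1.7% and 1.69% of all 12511 genes did. *Col23a1* changed by 1.43 ± 0.36 more on the log2 scale (adjusted p = 0.012), with 0.38 ± 0.24 in neuron-like cells. *Col2a1* differed by −1.43 ± 0.35 (adjusted p = 8.72e-03), with 0.50 ± 0.21 in neuron-like cells. The difference for *Col9a3* (0.53 ± 0.25, adjusted p = 0.30) and for *Col4a1* (0.79 ± 0.29, adjusted p = 0.145) did not pass.

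Endothelial-like and leptomeningeal-like cells were compared in the same way. The endothelium is not an expected target of *Sox1-Cre*, and the deletion was not measured in either class. In endothelial-like cells (6 control and 7 *Eed-cKO* embryos), edgeR called 0 of 17 genes, where 0.214% of all 9803 genes rose and 0.102% fell. At an unadjusted p under 0.05, 2 were higher and 1 lower, and DESeq2 called 0. *Col4a1* ran from 1689 to 4071 CPM in controls and from 1702 to 4160 in mutants (0.03 ± 0.18), *Col4a2* had a fitted change of 0.03 ± 0.16, *Lama4* of −0.00 ± 0.23 and *Lama5* of 0.02 ± 0.54. *Col5a2* had the lowest adjusted p (2.55 ± 0.59, adjusted p = 0.0542) with 8 and 40 UMIs, and passed without *Eed-cKO* embryo 4 (2.72, adjusted p = 0.046) or embryo 5 (2.69, adjusted p = 0.0285).

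In leptomeningeal-like cells (4 control and 8 *Eed-cKO* embryos with at least 5 cells), 3 of 38 genes rose and 0 fell, where 0.687% of all 10330 genes rose and 0.774% fell. At an unadjusted p under 0.05, 13 were higher and 2 lower. *Lama1*, the alpha chain of the pial basement membrane laminin, was at 123, 69.1, 177 and 133 CPM in control embryos 1, 3, 4 and 6 and from 310 to 583 in mutants (median 336), for 1.55 ± 0.27 (adjusted p = 1.94e-03). *Col4a5* was at 129, 188, 213 and 467 CPM in the same controls and from 490 to 708 in mutants (median 564), for 1.27 ± 0.25 (adjusted p = 4.80e-03). Neither gene overlapped between the groups, which rests on 4 controls, and the share of all genes without overlap was not computed here. *Col4a6* was at 92.4, 31.4, 189 and 283 CPM and from 255 to 388 (median 295), so that control embryo 6 lay within the mutants, for 1.19 ± 0.32 (adjusted p = 0.0467). This last call was lost without control embryo 1 (1.03), control embryo 3 (0.78) or any of *Eed-cKO* embryos 1 and 3 to 8 (1.15 to 1.22). *Col4a5* and *Col4a6* lie on the X chromosome, and the groups differed in their mix of sexes. Sex was fitted as a covariate in neuron-like cells only, where the same 8 genes passed, so its part here was not tested. The class was held by 2 clusters, with 65 control and 255 *Eed-cKO* cells in cluster 17 and 23 and 11 in cluster 26.

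The fibril-forming genes of leptomeningeal-like cells did not pass. *Col1a2* was at 5700, 6668, 4694 and 5653 CPM in controls and from 6055 to 10020 in mutants (0.42 ± 0.18, adjusted p = 0.315), and *Col3a1* (0.42 ± 0.18, adjusted p = 0.323), *Col4a1* (0.66 ± 0.23, adjusted p = 0.17) and *Lamc1* (0.18 ± 0.25, adjusted p = 0.872) did not pass either. *Lamb2* (−0.81 ± 0.24, adjusted p = 0.0842) and *Col7a1* (2.21 ± 0.60, adjusted p = 0.052, 6 and 85 UMIs) passed without control embryo 6 (−1.01, adjusted p = 9.03e-03, and 2.58, adjusted p = 0.0282). *Col7a1* also passed without *Eed-cKO* embryo 4 (2.28), 5 (2.35) or 9 (2.26), *Col4a1* (0.95) and *Col18a1* (1.23) without control embryo 4, and *Col8a1* (−3.18) without *Eed-cKO* embryo 4.

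**Figure D5:**
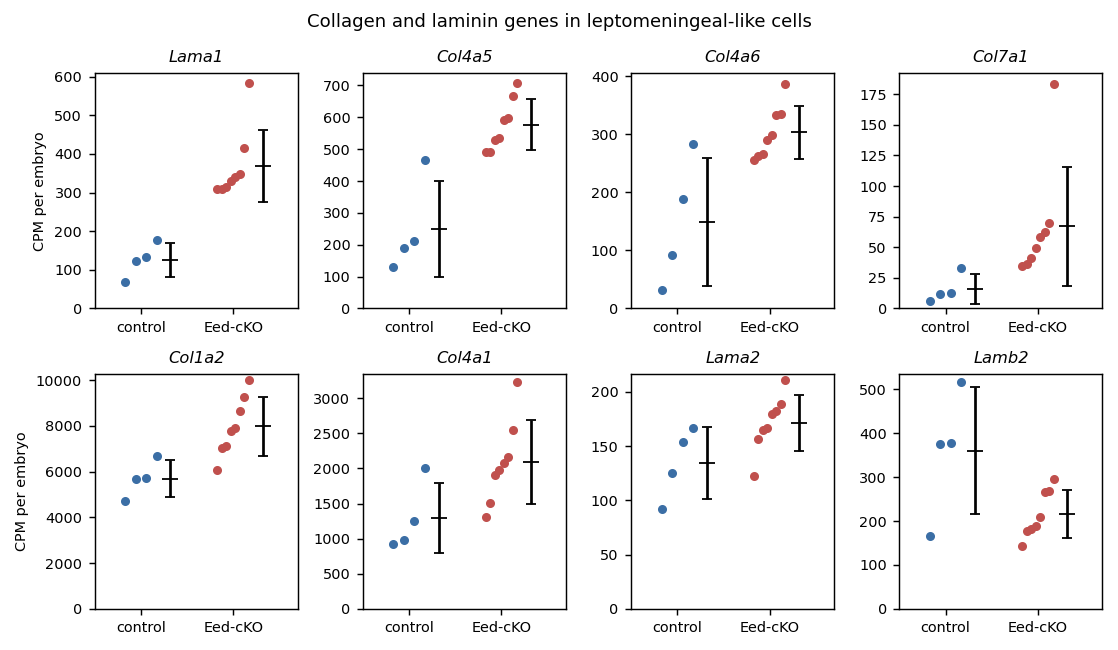
CPM per embryo of 8 collagen and laminin genes in leptomeningeal-like cells of 4 control (blue) and 8 Eed-cKO (red) embryos; black bars are the mean ± SD. The mutants lie above all controls in Lama1, Col4a5 and Col7a1 (the last did not pass the test), and the groups overlap in Col4a6, Col1a2, Col4a1, Lama2 and Lamb2.

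*Col4a5* and *Col4a6*, like *Col4a1* and *Col4a2*, are neighbours with opposite strands, and on the X chromosome their annotated start sites lie 1343 bases apart (*Col4a5* at chrX:141475385-141689234, plus strand, and *Col4a6* at chrX:141165403-141474076, minus strand). Their RefSeq promoter windows are shown for comparison with that of *Col4a2*, at chrX:141475169-141475468 on the plus strand and chrX:141474027-141474326 on the minus strand (GRCm38.p6, the same letters in capitals).
Col4a5: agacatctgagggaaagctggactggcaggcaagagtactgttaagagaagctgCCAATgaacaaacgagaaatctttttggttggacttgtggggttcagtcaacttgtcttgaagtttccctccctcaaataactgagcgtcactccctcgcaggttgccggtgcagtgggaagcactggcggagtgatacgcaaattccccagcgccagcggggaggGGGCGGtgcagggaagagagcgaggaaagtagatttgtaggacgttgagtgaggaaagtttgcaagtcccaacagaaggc
Col4a6: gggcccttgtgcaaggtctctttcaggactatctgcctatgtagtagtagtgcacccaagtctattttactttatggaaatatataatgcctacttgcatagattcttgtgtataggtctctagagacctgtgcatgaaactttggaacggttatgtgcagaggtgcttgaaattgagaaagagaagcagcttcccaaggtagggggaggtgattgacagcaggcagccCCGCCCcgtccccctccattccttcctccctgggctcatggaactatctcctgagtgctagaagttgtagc
The 2 windows hold 11 and 3 CpG dinucleotides, and 41.4% and 76.7% of all windows have at least as many. Each holds 1 GC box, and the *Col4a5* window also holds 1 CCAAT box.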

How the data were processed

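Per the labels, hypothalami were dissociated and sequenced on the ddSEQ platform. The authors deposited raw UMI counts, with genes in rows and the cells of 48 libraries in columns, without normalization. The SureCell RNA Single-Cell application had made them (STAR 2.5.2b, SAMtools 1.3, mm10). Cells under 600 UMIs or 1.2 UMIs per gene had been removed before deposit, and whether counting used strand is not given in the sources used here.

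From these counts, cells were clustered without the collagen and laminin genes (scanpy 1.11.5, leidenalg 0.10.2, 2000 variable genes, 30 components, 15 neighbours, resolution 1). Clusters were named from marker lists with at least 3 raised markers, or, for neurons, 8 of the neuron markers in most cells. Neuron clusters with more markers of another list than of neurons among the 10 leading genes were left out of the main test. Names rest on rebuilt clusters. Doublets were left in, and the top 6% of Scrublet scores were removed as an alternative.

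Counts were summed per embryo (at least 10 astrocyte-like cells, or 5 in the other non-neuronal classes) and tested with edgeR 4.0.16 (R 4.3.3; quasi-likelihood, TMM, Benjamini-Hochberg at 0.05 over all genes tested). Genes needed 15 UMIs in all and 2 in 1 sum, and in neural classes a median log-CPM of 1.5. For sums of few cells, TMM factors came from well-counted genes only. This choice was made after simulated data had been looked at, and a comparison with factors from all genes on such data is not reported here. DESeq2 1.42.0, limma 3.58.1, other filters and other cell choices were alternatives. Alternatives chosen after seeing the data were mixed neuron clusters, clusters shared by the genotypes, cells with few leptomeningeal markers, left-out libraries and TMM factors from all genes. Named genes were all calls in the neural classes, the 5 highest genes of each class, 11 genes set by name and the leading calls of each pathway list. *Col4a3*, *Col15a1*, *Col6a1*, *Col6a2*, *Col7a1*, *Lama1*, *Col4a6* and others outside that rule were chosen after their values were seen. The genes, lists and tests were chosen with earlier results of these data known. Intervals and floors cover counting error only, and p-values measure the spread between embryos.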

Additional observations from a re-analysis of the deposited data

Results flagged for a closer look

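In 42 groups of embryos tested for a value far from the rest (Dixon's rule, which flags about 1 in 20 by chance), 8 held one. In neuron-like cells, *Col26a1* in control embryo 1 was 25.2 CPM against 29.9 to 32.7 in the other controls. In astrocyte-like cells, *Eed-cKO* embryo 2 stood above the other mutants in *Col22a1* (254 CPM against 24.6 to 87.7), *Col5a2* (211 against 26.7 to 66.0) and *Col9a3* (296 against 167 to 215), and *Eed-cKO* embryo 3 in *Lama4* (86.1 against 11.0 to 48.4). Among controls, *Col1a2* was 42.3 CPM in embryo 4 (4.41 to 18.6 in the others), and *Col14a1* was 6.19 CPM in embryo 2, from 1 UMI, with 0 in the others. In leptomeningeal-like cells, *Lama1* in *Eed-cKO* embryo 3 was 583 CPM against 310 to 416.

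Genes whose genotype effect differed between the neural classes by the interaction test were *Col23a1*, with 1.43 more on the log2 scale in astrocyte-like than in neuron-like cells, and *Col2a1*, with −1.43.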

How the results depend on the processing

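No paired analysis was possible because control and *Eed-cKO* embryos share no litter, animal or replicate number. Of 117 alternative counts of called genes, 105 were within 1.5 times the reported count. In neuron-like cells, taking each library as a sample gave 13 calls (11 higher, 2 lower) in place of 8, and *Slc17a6* cells without *Slc32a1* and *Slc32a1* cells without *Slc17a6* gave 3 each (*Col26a1*, *Col6a1*, *Col6a2* and *Lama5* were lost in both, *Col4a1* in the first and *Col9a2* in the second). *Col9a3* and *Col4a2* passed in all alternatives run in neuron-like cells. With each litter as a sample, 7 genes passed and *Lama5* did not reach the filter on low counts. Leaving out each embryo gave 8 to 10 calls in neuron-like, 7 to 9 in astrocyte-like, 0 to 1 in endothelial-like and 2 to 5 in leptomeningeal-like cells, and leptomeningeal-like sums of at least 10 cells gave 5. Between classes, edgeR's filterByExpr, which tested fewer genes, gave 22 in place of 37 calls (leptomeningeal-like against endothelial-like), 13 in place of 24 (against pericyte-like) and 6 in place of 18 (endothelial-like against pericyte-like), where sums of at least 10 cells gave 7. The leptomeningeal-like against pericyte-like test was not run on sums of at least 10 cells, since too few embryos had both. Of 1028 alternative values of single genes, 982 kept their side of the threshold, 46 lost it and 0 reversed. *Col6a1*, *Col6a2* and *Lama5* rest on under 200 UMIs per genotype in neuron-like cells, which limits their precision.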
